A study of Rattus norvegicus with 6 samples.

Results

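Stress-responsive and C/EBP transcription factors of the basic leucine zipper class were followed in rat organotypic hippocampal cultures exposed to gabazine. The 9 genes are Atf3, Atf4, Atf5 and Ddit3 (which encodes CHOP), Nfil3 (also called E4BP4), and Cebpa, Cebpb, Cebpd and Cebpg. This gene list was drawn up with earlier results of these data known, and the paper reports Atf3 and Nfil3 as up-regulated. Counts over its members are therefore not independent evidence. All probe sets that the array annotation assigns to a single listed gene were taken by symbol, with no filter on their values. This gave 16 of 31099 probe sets, for 9 of the 14218 genes with a symbol of their own: Cebpa has 5 probe sets, Cebpd 3, Cebpg 2 and each other gene 1. Gabazine blocks GABA-A receptors, the main inhibitory receptors of the hippocampus, and so raises synaptic activity. Cultures treated with 20 µM gabazine for 90 min (gabazine, n = 3) were compared with untreated cultures (control, n = 3) on 6 Affymetrix RAT2302 arrays. The cultures came from hippocampi of Wistar rat pups, with an age of postnatal day 4 in the labels, and each replica split the cultures of 2 littermates between both conditions. The comparison asks which of these factors differ after a single dose and time of increased activity, and the RNA of neurons and glia was measured together.

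Basic leucine zipper factors bind DNA as dimers, and the partner decides which site is read and whether a gene is activated or repressed. In the integrated stress response, kinases that phosphorylate the translation factor eIF2 slow general protein synthesis while the Atf4 messenger is translated more, and ATF4 then activates Ddit3, Atf3 and genes of amino acid supply. Because Atf4 is controlled largely at translation, its RNA level on an array is not a measure of its protein. The C/EBP factors are best known from liver, fat and myeloid cells, and Cebpb and Cebpd also respond to inflammatory cytokines, while in neurons Atf3, Nfil3 and Cebpb are known as genes that synaptic activity and calcium can induce.

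Among the 9 genes, Atf3 and Nfil3 were the ones whose 3 gabazine arrays all lay above the 3 control arrays, Cebpb was higher in every pair but with overlapping groups, and the brighter Cebpg probe set was lower in every pair. A pair is the gabazine and the control array of the same replica, and its log2 ratio is that of gabazine over control. In all, 4 of the 16 probe sets were higher in all 3 pairs, against 6.92% of all probe sets, and 1 was lower in all 3 pairs, against 9.49%. Non-overlap with gabazine above control was found for 2 of the 16, against 0.289% of all probe sets, and for 0 with gabazine below control, against 0.0965%. A probe set with the same value on both arrays of a pair (a tie) cannot be counted in these ways or in the sign patterns below. A tie occurred for 25% of the 16, against 47.4% of all, so ties lower the shares over all probe sets more. No probe set of any gene passed the adjusted threshold of limma's paired test in either direction (0% of 31099, smallest adjusted p = 0.467), and the adjusted p of the 16 probe sets lay between 0.747 and 1.00. At an unadjusted p under 0.05 in limma, 1 of the 16 was higher (Atf3, against 1.84% of all probe sets) and 1 was lower (Cebpg, against 2.68%). Which members were under that p depended on the setting. Nfil3 joined Atf3 under each other scaling and filter and with eBayes using trend and robust, and without the replicate block Nfil3 alone was under it. Cebpg was not under it without the block, without pair 1 or without pair 2. With pair 2 left out, the 5 higher ones were Atf3, Atf4, Nfil3, Ddit3 and 1 Cebpd probe set. In that setting 825 of all 31099 probe sets were higher at that p, against 571 in the main fit. It leaves out the pair in which Atf4 and Ddit3 were lower. Without pair 2, 10 of the 16 were higher in both other pairs, against 19.6% of all probe sets. The median log2 fold change was 0.24 over the 16 probe sets and 0.00 over all probe sets. In RNA of whole cultures, fewer cells of a type and less RNA per cell cannot be told apart.

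**Figure D1:**
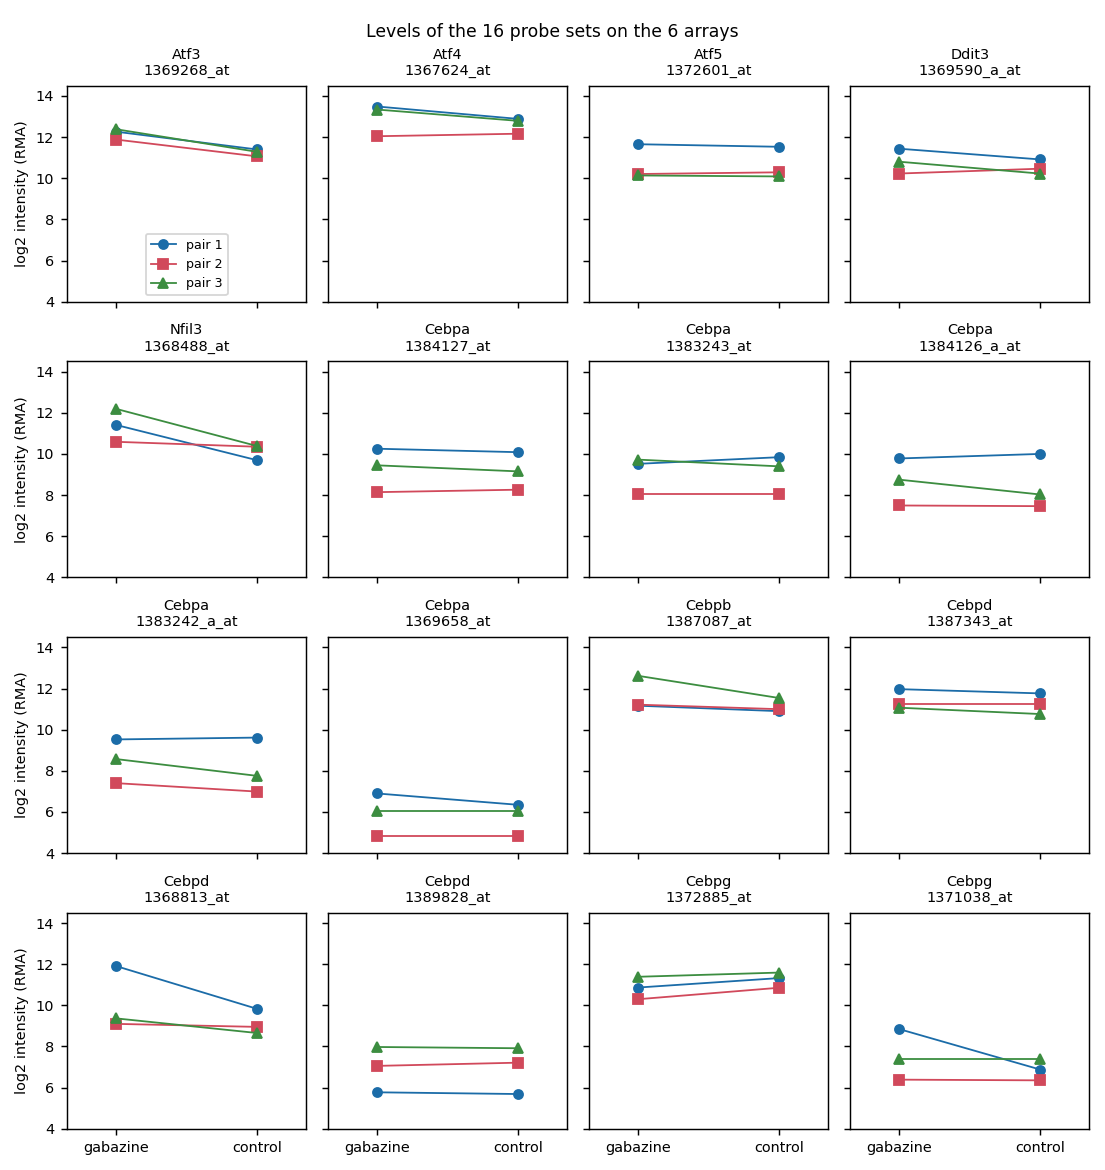
RMA log2 intensity of the 16 probe sets, gabazine on the left and control on the right of each panel, with 1 line per replica pair. Every gabazine point of Atf3 and Nfil3 lies above every control point, and most other panels are spread more between pairs than between conditions.

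The 3 pairs did not carry equal weight. The SD of the log2 ratios over all probe sets was 0.475, 0.247 and 0.230 in pairs 1, 2 and 3. More than 2-fold higher with gabazine were 4.07%, 0.685% and 0.318% of probe sets. The median log2 intensity was 8.71, 7.89 and 8.68 on the gabazine arrays and 8.63, 7.90 and 8.71 on the control arrays, so both arrays of pair 2 were dimmer. In pair 1 the 5′ minus 3′ signal of the array's own rat control transcripts, a sign of RNA integrity, shifted by a median log2 of 0.50, against -0.02 and -0.08 in pairs 2 and 3. The summed intensity of 6 choroid plexus markers was 11465, 2715 and 1702 on the gabazine arrays and 2171, 2512 and 1610 on the control arrays, and Ttr, its defining carrier protein gene, had a log2 ratio of 4.59 in pair 1. Of 9 endothelial and pericyte markers, 0 lay above the median of the arrays, whereas 9 of 10 astrocyte and 7 of 9 excitatory neuron markers did. The same probe set had the same value on both arrays of a pair for 16.1%, 24.1% and 25.7% of probe sets in pairs 1, 2 and 3, and a tie in at least 1 pair occurred for 4 of the 16 probe sets, against 47.4% of all. The part of these differences in the results was not tested.

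Atf3, a stress-induced member of the ATF/CREB group that represses many of its targets as a homodimer, had the smallest spread between pairs of the 4 probe sets that were higher in all of them. Its log2 intensity was 12.26, 11.88 and 12.38 on the gabazine arrays of pairs 1, 2 and 3, against 11.40, 11.07 and 11.29 on the control arrays. The lowest gabazine array was above the highest control array, and the control arrays themselves differed little. The pair ratios were 0.86, 0.82 and 1.10, with a mean log2 fold change of 0.92 ± 0.15 (SD of 3 pairs), or 1.90-fold, and a 95% interval of 0.68 to 1.17. Limma's unadjusted p was 0.00139 and its Benjamini-Hochberg adjusted p 0.747. The Atf3 ratio ranked at the 94.8th, 98.9th and 99.7th percentile of all probe sets in pairs 1, 2 and 3, where ratios spread most in pair 1. Over the mean of the pairs it ranked at 131 of 31099. Leaving out each pair in turn gave 0.84 to 0.98.

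Nfil3 encodes a leucine zipper repressor that binds the sites of the PAR factors Dbp, Tef and Hlf and is also known from the development of natural killer cells. Its log2 intensity was 11.41, 10.59 and 12.19 with gabazine, against 9.70, 10.35 and 10.39 in control cultures. The groups did not overlap, but the gabazine array of pair 2 was only slightly above the highest control array. The pair ratios were 1.71, 0.24 and 1.80, so that 2 pairs were above 3-fold and pair 2 was not, and leaving out each pair in turn gave means of 0.98 to 1.76. The mean log2 fold change was 1.25 ± 0.88 (SD of 3 pairs), or 2.38-fold, with a 95% interval of -0.10 to 2.61 and a limma adjusted p of 0.747. It was the highest mean of the 16 probe sets, at rank 52 of all probe sets, and had a wider interval than Atf3.

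The other stress factors shared a different pattern, higher in pairs 1 and 3 and lower in pair 2. Atf4, the central activator of the integrated stress response, had log2 intensities of 13.49, 12.04 and 13.34 with gabazine, against 12.89, 12.17 and 12.79 in control cultures. Its ratios were 0.60, -0.12 and 0.55, and the mean of 0.34 had a 95% interval of -0.28 to 0.97 and ranged from 0.21 to 0.58 with a pair left out. Ddit3, whose product CHOP dimerises with C/EBP factors and promotes death under prolonged stress of the endoplasmic reticulum, had 11.44, 10.23 and 10.80 with gabazine, against 10.92, 10.47 and 10.23 in control cultures. The groups of both genes overlapped. The gabazine array of pair 2 lay below all control arrays for Atf4 and among them for Ddit3. For Ddit3 the gabazine array of pair 3 was also below the control array of pair 1. The Ddit3 ratios were 0.52, -0.23 and 0.58, with a mean of 0.29, a 95% interval of -0.42 to 0.99 and a range of 0.14 to 0.55 with a pair left out. Atf5, a relative of Atf4 known from stress and from neural progenitors, had 11.66, 10.21 and 10.14 with gabazine, against 11.53, 10.29 and 10.09 in control cultures. These arrays differed between pairs and barely within them. The Atf5 ratios were 0.12, -0.08 and 0.05, and the 95% interval of the mean, -0.16 to 0.21, excludes a change as large as the Atf3 mean. Together with the brightest probe set of Cebpa, 4 of the 9 genes had this sign pattern, against 9.42% of all genes on their brightest probe sets, and 0 had the reverse pattern, against 7.6%. The other Cebpa probe sets did not have it, and their pair 2 ratios were 0.00, 0.03, 0.41 and 0.00. A tied gene cannot have either pattern. On brightest probe sets, a tie occurred for 11.1% of the 9 genes, against 42.7% of all.

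**Figure D2:**
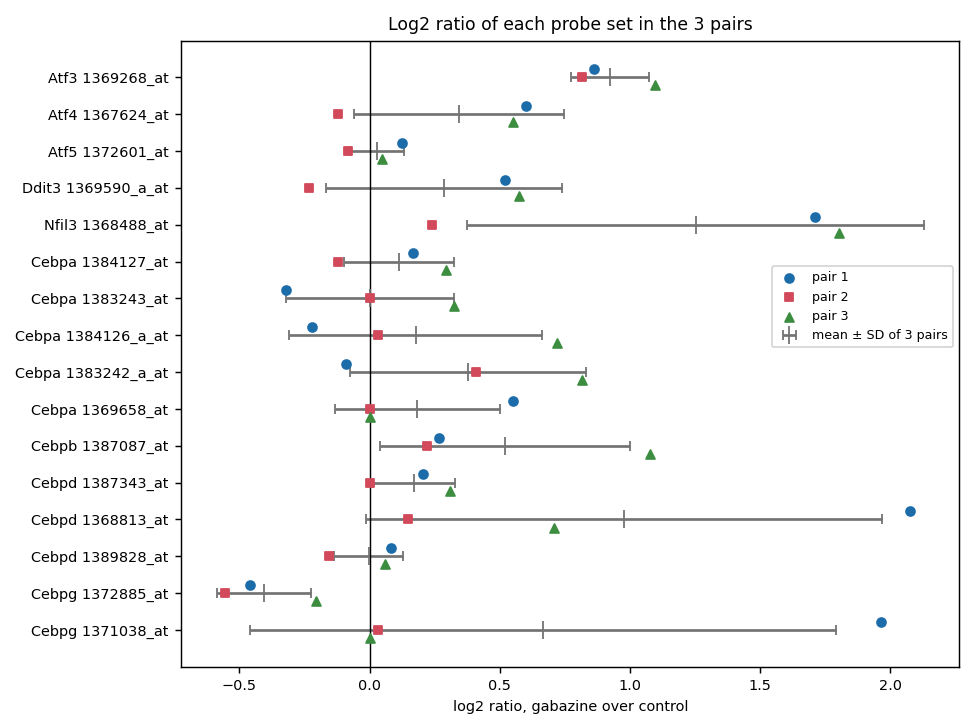
Log2 ratio of gabazine over control for each of the 16 probe sets in the 3 pairs, with the mean and SD of the pairs as a tick and bar. Atf3 has the narrowest spread of the 4 probe sets above 0 in every pair, and the bars of Nfil3, Cebpd 1368813_at and Cebpg 1371038_at are wide because the pairs differ.

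Cebpb encodes the C/EBP that acts in memory formation in rodents and in the acute phase of inflammation. Its log2 intensity was 11.16, 11.22 and 12.61 with gabazine, against 10.90, 11.00 and 11.54 in control cultures. Pair 3 stood highest in both conditions, and its control array exceeded the gabazine arrays of the other pairs. The ratios were 0.26, 0.22 and 1.08, with a mean log2 fold change of 0.52 ± 0.48 (SD of 3 pairs), or 1.43-fold, a 95% interval of -0.23 to 1.27 and a limma adjusted p of 0.747. Leaving out pair 3 gave 0.24, and leaving out each pair in turn gave 0.24 to 0.67.

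Cebpd, a delta form of the family that is induced by cytokines in glia and other cells, gave an answer that depended on the probe set. The brightest, 1387343_at, had 11.97, 11.25 and 11.07 with gabazine, against 11.76, 11.25 and 10.76 in control cultures, with ratios of 0.21, 0.00 and 0.31 and a mean of 0.17 (95% interval -0.09 to 0.43). The second, 1368813_at, had 11.91, 9.10 and 9.37 with gabazine, against 9.83, 8.95 and 8.66 in control cultures. Its gabazine array of pair 1 stood far above the other 5, and the other gabazine arrays lay below the control array of pair 1. The ratios were 2.08, 0.15 and 0.71, with a mean of 0.98 ± 0.99 (SD of 3 pairs) and a range of 0.43 (without pair 1) to 1.39 (without pair 2). The dimmest, 1389828_at, had ratios of 0.08, -0.16 and 0.06 around a mean of -0.0038. The large ratio of 1368813_at fell in the pair with the shift of the 5′ control signal and the choroid plexus markers, whose part in it was not tested.

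Cebpg encodes a short C/EBP that lacks a strong activation domain and forms dimers with other C/EBPs and with ATF4. The brighter probe set, 1372885_at, had 10.87, 10.30 and 11.39 with gabazine, against 11.33, 10.86 and 11.59 in control cultures. Gabazine was lower in each pair although the groups overlapped. The ratios were -0.46, -0.56 and -0.20, with a mean of -0.41 ± 0.18 (SD of 3 pairs), a 95% interval of -0.70 to -0.11, an unadjusted p of 0.0222 in limma and an adjusted p of 0.747. The dimmer probe set, 1371038_at, had 8.84, 6.39 and 7.39 with gabazine, against 6.88, 6.35 and 7.39 in control cultures. It differed in pair 1 (1.96) and hardly in pairs 2 and 3 (0.03 and 0.00), so that its mean of 0.67 was 0.02 without pair 1. The probe sets of Cebpg thus pointed in opposite directions, and their mean per array gave a positive log2 fold change of 0.13.

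Cebpa, the alpha form needed for myeloid and fat cell differentiation, had small mean ratios, and its 5 probe sets read the same gene and are not independent. The brightest probe set, 1384127_at, had 10.25, 8.14 and 9.45 with gabazine, against 10.09, 8.26 and 9.15 in control cultures. Within each condition the pairs kept the order 1, 3 and 2, and the summed intensity of 12 microglia and macrophage markers kept it too, with 51941, 14420 and 18956 on the gabazine arrays and 51692, 15234 and 16845 on the control arrays. The marker sums of GABAergic interneurons, the oligodendrocyte lineage and meningeal cells had the same order in both conditions. The ratios of 1384127_at were 0.17, -0.12 and 0.29, with a mean of 0.11 and a 95% interval of -0.22 to 0.45. The other 4 probe sets had means of 0.0014 to 0.38. Their ratios were lower in pair 1 for 1383243_at (-0.32), 1384126_a_at (-0.22) and 1383242_a_at (-0.09), all of which were higher in pair 3 (0.33, 0.72 and 0.81). In pair 2 these probe sets had 0.00, 0.03 and 0.41, unlike the brightest. The dimmest, 1369658_at, was tied in pairs 2 and 3 and had 0.55 in pair 1. Cebpa and Cebpg are neighbours on chromosome 1 in the RefSeq annotation of GRCr8, as Atf3 and Batf3 are on chromosome 13, and Batf3, a partner of Jun proteins, had ratios of 0.46, 0.00 and 0.14.

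Activity and stress reach several of these genes through CREB and ATF sites, whose core is TGACG. Of the 9 genes, 7 were matched in the RefSeq promoter table of GRCr8, and the 250 bases before the start site were searched on both strands. Atf3 and Cebpd had no matched entry and were not searched. TGACG was found in 3 of the 7 promoters, those of Cebpb, Nfil3 and Atf4, against 18.2% of 33469 promoters. They are shown 5′ to 3′ on the strand of the gene, with TGACG, or CGTCA where it lies on the other strand, in capitals. They lie at chr3:176816755-176817004 (Cebpb), chr17:12432126-12432375 (Nfil3) and chr7:113684431-113684680 (Atf4), all on the plus strand of GRCr8.
Cebpb: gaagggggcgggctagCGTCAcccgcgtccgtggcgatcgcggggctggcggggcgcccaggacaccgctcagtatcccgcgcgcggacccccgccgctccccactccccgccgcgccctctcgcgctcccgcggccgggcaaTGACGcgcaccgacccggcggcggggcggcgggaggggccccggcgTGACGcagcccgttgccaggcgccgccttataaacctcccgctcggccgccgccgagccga
Nfil3: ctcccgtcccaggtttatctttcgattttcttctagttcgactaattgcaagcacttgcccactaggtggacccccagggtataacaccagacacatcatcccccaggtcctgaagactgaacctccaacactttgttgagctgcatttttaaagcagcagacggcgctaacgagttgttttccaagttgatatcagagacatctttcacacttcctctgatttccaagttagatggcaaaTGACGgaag
Atf4: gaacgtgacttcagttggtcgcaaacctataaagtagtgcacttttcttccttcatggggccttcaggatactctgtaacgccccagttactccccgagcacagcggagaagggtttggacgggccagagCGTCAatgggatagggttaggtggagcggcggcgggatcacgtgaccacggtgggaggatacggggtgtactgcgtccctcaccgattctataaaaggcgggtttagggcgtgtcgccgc
Cebpb held 3 copies, with their outer base 234, 107 and 61 bases before the start site. The copy in Nfil3 began 9 bases before the start site, and that in Atf4 began 120 bases before it. The full palindrome TGACGTCA, which contains TGACG, was in 0 of the 7 promoters and in 1.59% of all. The composite C/EBP-ATF site TGATGNAA was in 0 of the 7 (3.4% of all), the C/EBP palindrome TTGCGCAA in 0 (0.14% of all) and the PAR and NFIL3 site TTACNTAA in 0 (2.04% of all). CCAAT was in the promoters of Cebpg and Ddit3 (34.0% of all). Cebpb, Nfil3 and Atf4, which hold TGACG in this window, had mean log2 fold changes of 0.52, 1.25 and 0.34, and a match describes letters only. The other searched genes had 0.29 (Ddit3), 0.03 (Atf5) and, on their brightest probe sets, 0.11 (Cebpa) and -0.41 (Cebpg). A link between motif and fold change was not tested.

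Genes that ATF4 and CHOP are known to activate were mostly lower in pair 2, as Atf4 and Ddit3 were. Of 40 measured genes of amino acid supply and redox balance, 0 passed the adjusted threshold, 5 were higher at an unadjusted p under 0.05 in limma (2.37% of all genes) and 0 were lower (2.84%). Their median log2 ratio was 0.08, -0.17 and 0.17 in pairs 1, 2 and 3, against -0.01, 0.00 and 0.00 over all genes, and 29 of the 40 were lower in pair 2, against 44.8% of all genes. The sign pattern of Atf4 was found for 13 of them (32.5%), against 9.42% of all genes. It was not particular to these targets. The inflammatory genes had it in 36.4%, the endoplasmic reticulum genes in 35.7% and the microglia and macrophage markers in 33.3%. The C/EBP cofactors had it in 7.69% and the clock genes in 0%. Lower in pair 2 were also 20 of 28 endoplasmic reticulum genes, but 5 of 17 clock genes. Of the 40 targets with 1 direction in all pairs, Ddit4 was the highest, with ratios of 0.49, 0.76 and 0.64 and a mean of 0.63 ± 0.07 (SE). It encodes an inhibitor of mTORC1 that ATF4 and glucocorticoids induce. The lowest was Aars1, the alanyl-tRNA synthetase, with a mean of -0.17. The other 4 at that p were Gadd45a (0.55), the amino acid transporters Slc7a5 (0.32) and Slc1a4 (0.21), and Vegfa (0.15), whose other probe set had 0.47. Chosen after their values were seen, 3 stress genes had far lower ratios in pair 2 than in the others. Gdf15, a secreted stress hormone, had 0.58, -1.25 and 1.05. Sesn2, a leucine sensor, had 0.67, -0.73 and 0.63 on the brighter of its probe sets, and Chac1, which degrades glutathione, had -0.19, -1.17 and 0.80. Asns, the asparagine synthetase often used as a readout of ATF4, had -0.23, -0.34 and 0.09.

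**Figure D3:**
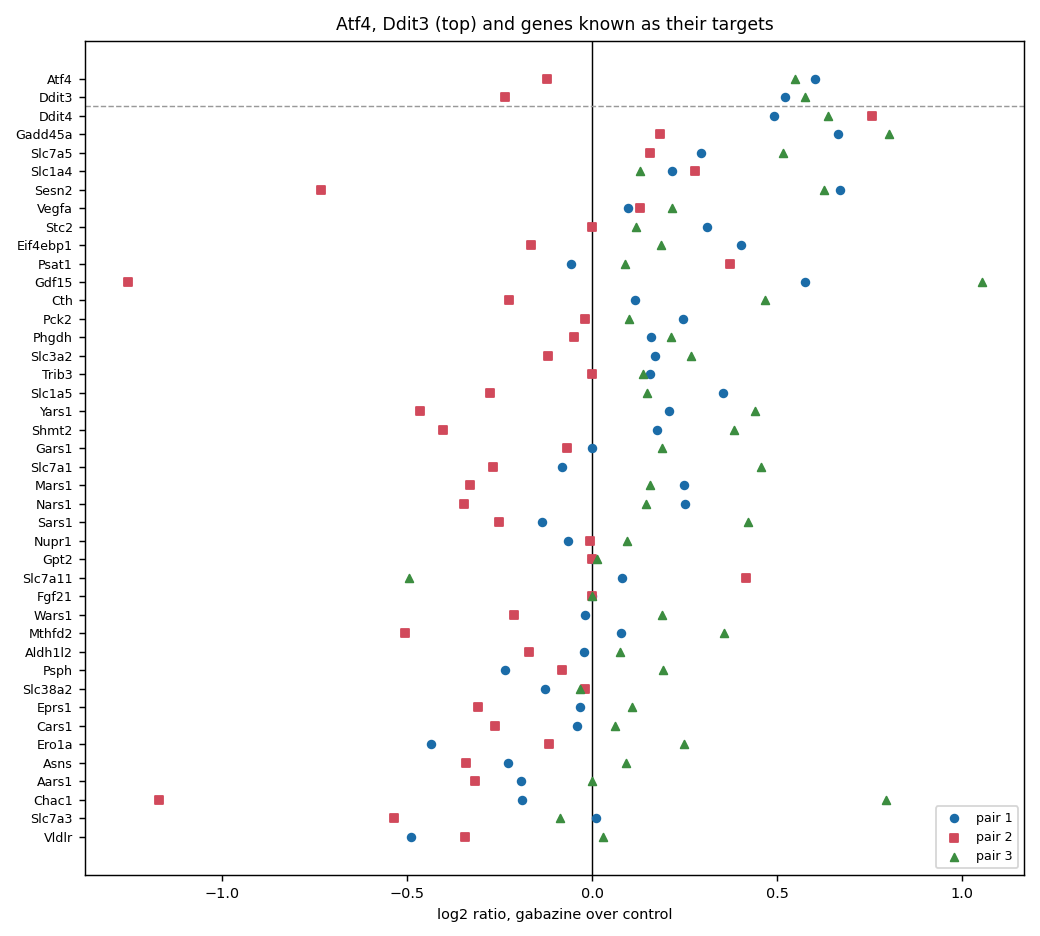
Log2 ratio of gabazine over control in the 3 pairs for Atf4 and Ddit3 (top) and 40 genes known as targets of ATF4 and CHOP, ordered by mean log2 ratio from top to bottom. Pair 2 lies left of the other pairs for most genes, and Ddit4 at the top is right of 0 in every pair.

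Upstream of Atf4, 19 genes of the integrated stress response were measured, of which 1 was higher at an unadjusted p under 0.05 in limma and 0 were lower. It was Ppp1r15a (GADD34), which directs a phosphatase to eIF2 and ends the response, with ratios of 1.30, 0.38 and 1.47 and a mean of 1.05 ± 0.28 (SE, limma adjusted p = 0.747). The lowest with 1 direction was Eif2ak3, the endoplasmic reticulum kinase PERK, at -0.04. Among 28 chaperones and genes of the unfolded protein response, 2 were higher and 1 lower at that p, with a median of 0.05. Hsp90b1, the endoplasmic reticulum chaperone GRP94, had nearly equal ratios of 0.19, 0.18 and 0.20, and the other higher gene was Selenos (0.16), which acts in the removal of misfolded proteins. Edem1, which helps to clear misfolded glycoproteins, had a mean of -0.25 ± 0.05 (SE), and its 2 other probe sets had -0.06 and 0.03. Of the 13 genes of the Jun N-terminal and p38 kinase routes that lead to Atf3 and Ddit3, 1 was higher at that p, Jun, a frequent partner of ATF3, with 0.27, 0.24 and 0.46. Its 2 other probe sets had larger means, of 0.74 and 0.97. The kinase Mapk8 was the lowest of them with 1 direction, at -0.14, with -0.33 to 0.15 on its 3 other probe sets.

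Other leucine zipper partners and cofactors were read on the brightest probe set of each gene, and several of these genes have other probe sets that point elsewhere. Of 19 other leucine zipper genes, 0 were higher at that p and 1 was lower, the activity-regulated activator Creb1, with -0.45, -0.12 and -0.35, while its 3 other probe sets had means of -0.19 to 0.25. The PAR factor Tef was highest (0.21, with -0.30 and 0.18 on its other probe sets) and Atf1, a relative of Creb1, lowest (-0.31) of those with 1 direction in every pair. Of 13 cofactors and Tribbles genes, 4 were lower in all pairs, against 10.8% of all genes, among them the acetyltransferases Ep300 (-0.36) and Crebbp (-0.27), coactivators of CREB and C/EBP factors, and Crebbp was the 1 below 0.05 in unadjusted p. The other Ep300 probe set had a mean of 0.10, and the 4 others of Crebbp had -0.24 to 0.45. Trib1, which targets C/EBP-alpha for degradation, had 2.82, 0.34 and 0.33, so pair 1 set most of its mean of 1.16, and its 2 other probe sets had means of 0.21 and 0.27. Of 19 CREB and MEF2 regulators, 5 were lower in all pairs, against 10.8% of all genes. All but Rps6ka3 were genes already named from the lists above, Creb1, Atf1, Ep300 and Crebbp, so the counts of these lists overlap. Of the regulators with 1 direction in every pair, the kinase gene Rps6ka3 was lowest at a mean of -0.38, most of it from pair 1 (-1.02). The CREB coactivator Crtc2 was highest at 0.31. Crem, which also encodes the repressor ICER, had a higher mean of 0.49 but was lower in pair 2 (-0.04). The 17 clock genes, some of which share the sites of Nfil3, held 3 that were higher at that p and 5 that were higher in every pair, against 7.79% of all genes. Per1, a CREB target of the clock, had 1.20, 0.32 and 0.93, while its relative Per2 was lower in every pair on its brighter probe set, with a mean of -0.33, and had 0.10 on the other. The other clock genes at that p were the repressors Cry2 (0.52) and Nr1d1 (0.20).

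Cytokine and acute phase genes, which lie up- and downstream of Cebpb and Cebpd, had small medians over the mean of the pairs and larger ones in pair 3. In pairs 1, 2 and 3 the medians were 0.00, -0.04 and 0.25 for cytokine and STAT3 signalling. The inflammatory genes had 0.05, -0.03 and 0.26, against -0.01, 0.00 and 0.00 over all genes. Of 21 genes of cytokine and STAT3 signalling, 0 reached an unadjusted p under 0.05 and the median was 0.04, with Nfkb1 (0.25) and the receptor chain Il6st (-0.11) as the highest and lowest of 1 direction. The 3 other Il6st probe sets had means of 0.05 to 0.63. Of 22 inflammatory genes known as C/EBP targets, 1 reached it, Ptges, a prostaglandin E synthase, with 0.48, 0.32 and 0.46. Chosen after their values were seen, Lcn2, an iron-scavenging acute phase protein gene, had 0.54, -2.06 and 0.17, and the chemokine Ccl2 had 0.04, -1.59 and 1.91. The complement gene C3 had 0.11, -1.45 and 0.50, so these 3 were lower with gabazine in pair 2 by over 2-fold.

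The 6 measured genes grouped with Atf3 as activity-regulated survival genes had a median log2 fold change of 1.39. The list was drawn up with results of these cultures known, so its direction is not independent evidence. Nr4a1, an orphan nuclear receptor induced by calcium, had 2.87, 1.94 and 3.10 and a mean of 2.63 ± 0.29 (SE). The growth arrest and DNA damage gene Gadd45g had 2.62, 1.23 and 2.25, and its relative Gadd45b had 1.08, 0.09 and 1.47. Inhba and Serpinb2 were higher in pairs 1 and 3, with 1.99 and 2.35 for the activin subunit and 3.65 and 2.48 for the protease inhibitor, and lower in pair 2, with -2.10 and -0.44. The other Inhba probe set had a mean of 0.02. In pair 2, Atf3 (0.82), Nr4a1 and Gadd45g were thus higher while Inhba and Serpinb2 were lower. The remaining gene, the repressor Bcl6, had a mean of 0.09.

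**Figure D4:**
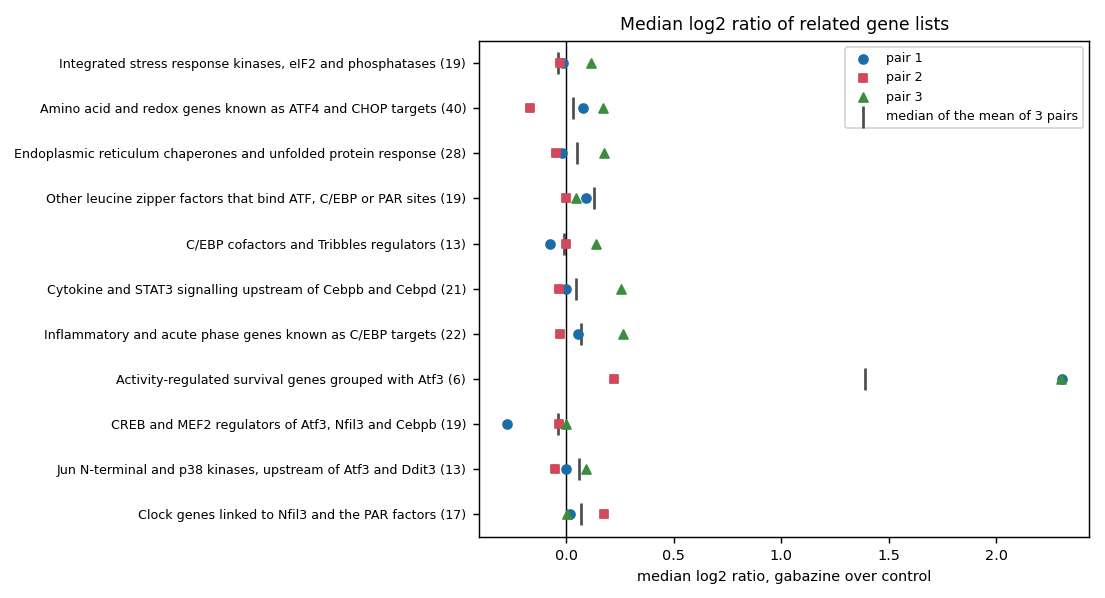
Median log2 ratio of gabazine over control in each pair for 11 gene lists related to these factors, with the number of measured genes in brackets and the median of the 3-pair means as a vertical mark. The survival genes have medians of 2.31, 0.22 and 2.30, and the other lists lie between -0.28 and 0.26 in every pair.

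The genes with the ratios most like those of Atf3, by Euclidean distance over the 3 pairs among 14217 other genes, were Ccnl1 (0.126), Nr4a3 (0.148) and Fos (0.204), and 13 genes lay within 0.5. Ccnl1, a cyclin of RNA splicing, had 0.89, 0.80 and 0.97. Nr4a3, a nuclear receptor of the same family as Nr4a1, had 0.86, 0.96 and 1.06, and Fos, the partner of Jun in AP-1, had 1.06, 0.86 and 1.09. Likeness was measured on the brightest probe sets, and the others had means of 0.21 and 3.39 for Nr4a3 and 0.08 for Fos. Nfil3 had 0 genes within 0.5, and its nearest were Ppp1r15a (0.547), the insulin signalling adaptor Irs2 (0.668) and the early response gene Ier2 (0.720). Irs2 had 1.49, 0.50 and 1.23, and Ier2 had 1.67, 0.92 and 1.57. As a reference, Gapdh, a glycolytic enzyme gene, had ratios of 0.03, 0.02 and 0.14 and a mean of 0.07 ± 0.04 (SE) on its brightest probe set, and means of 0.20 and 0.22 on the other 2.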

How the data were processed

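RNA of gabazine-treated and untreated rat hippocampal slice cultures was measured on 6 arrays. The deposited values are log2 intensities that the authors obtained with RMA, of unstated version. They come with no detection call, so how far a dim probe set lies over background is unknown, and the number of arrays limits the precision. No column was left out.

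By the annotation, 20832 probe sets have 1 symbol, 436 have several and 9831 are unnamed here, and those with several were not used, which leaves Actb out. Members, gene lists and the rule for named genes (all member probe sets, the highest and lowest gene of each list with 1 direction in every pair, the 3 nearest genes of Atf3 and Nfil3, and Gapdh) were chosen with earlier results of these data known. Lists were read on the brightest probe set of each gene. Pairs were fitted in R 4.3.3 by limma 3.58.1 with the replica number as a block, 2 residual degrees of freedom, eBayes and Benjamini-Hochberg adjustment over all probe sets at 0.05, and the script was tested on simulated data. The design text states that each replica shared littermates, and the deviations from the group means had correlations of 0.794, 0.664 and 0.853 within pairs 1, 2 and 3. The smallest p that exact tests allow here is 0.25 for sign flips of the pairs and 0.1 for permuting the arrays. Alternatives were no block, median centring, quantile and cyclic loess scaling, the dimmest 40% left out and eBayes with trend and robust. Further ones were gene means, each pair left out and, chosen after seeing the data, tied probe sets left out. The last was a joint share of the 3 ratios, a simpler form of the methods' joint distribution without their Kaplan-Meier estimator.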

Additional observations from a re-analysis of the deposited data

How the results depend on the processing

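No probe set passed the adjusted limma threshold under the scalings, filters, variance model or left-out pairs. Without the replicate block 14 were higher, none of them among the 16. A joint share was also taken, a simpler form of the methods' joint distribution without their Kaplan-Meier estimator, so its count is not the paper's. It takes the share of probe sets at least as high in all 3 replicas. For 1687 probe sets (5.42% of all) it was at or under 0.005. Of the 16, 9 were at or under it, namely Atf3, Atf4, Ddit3, Nfil3, Cebpb, 2 of Cebpa, 1 of Cebpd and Cebpg 1371038_at, from 0.00064 (Nfil3) to 0.0042 (Ddit3). At an unadjusted p under 0.05, 571 were higher and 835 lower, against 83 and 1 without the block, 367 and 527 without the dimmest probe sets, 375 and 520 without tied ones, and 1262 lower without pair 2. Of the 16 probe sets, 4 were higher in all 3 pairs, against 6.92% of all. After median centring 7 were, but the share over all in that setting is not given, so this count has no background to be read against. With pair 1, 2 or 3 left out, 6, 10 and 5 were higher in both remaining pairs. The shares over all probe sets then rose too, to 14.3%, 19.6% and 13.5%. In each of these settings 1 of the 16 was lower in all pairs used. The share over all probe sets was 9.49% in the main fit and is not given for the other settings. Of 156 alternative values for the 16 probe sets, 7 reversed in direction and 149 did not, and limma called none at the adjusted threshold. Among the 149, Cebpa 1369658_at without pair 1 had no direction, because it was tied in pairs 2 and 3. With a pair left out, Atf5 ranged from -0.018 to 0.085, Cebpa 1383243_at from -0.16 to 0.16, Cebpa 1384126_a_at from -0.094 to 0.38 and Cebpd 1389828_at from -0.048 to 0.072. Cebpa 1383243_at was -0.013 after median centring and -0.00067 after quantile normalization, and the mean of both Cebpg probe sets was 0.13. The cause of these reversals was not tested. Filters left out 4 of the 16 (tied) or 3 (dim). Only 3 pairs, and no detection measure for dim probe sets, limit what could be called.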
